A study of Mus musculus with 40 samples.

Results

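Interferon-stimulated genes are the transcripts that a cell switches on after an interferon has bound its receptor. The 42 genes described here were taken by name from a table of 37310 genes, and all 42 were found and passed the gene filter. They were measured by RNA sequencing in a mouse model of lung squamous cell carcinoma, in which N-nitrosotris-(2-chloroethyl)urea (NTCU), a carcinogen, is applied to the skin and squamous lesions form in the airways. The female mice, of the inbred strains SWR/J and A/J, were about 8 weeks old at entry. No genetic change was made in any group, so all groups share the wild-type background of their strain. The tissue was fresh frozen, and was either a whole lung section or tissue cut out by laser capture microdissection (LCM).

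Of 40 samples, the 25 that passed the study's quality control entered the comparisons. The normal group (n = 7) came from mice given the acetone vehicle and no NTCU. It held 3 LCM samples, 1 from SWR/J and 2 from A/J, and 4 whole lung samples, 3 from SWR/J and 1 from A/J. The mild dysplasia group (n = 5) came from SWR/J mice alone, at a total of 15 µmol NTCU, and held 3 LCM and 2 whole lung samples. The high-grade group (n = 13) held 9 samples of moderate to severe dysplasia, 2 of severe dysplasia, 1 carcinoma in situ and 1 squamous tumor, at 14 to 50 µmol NTCU. Of these, 8 came from SWR/J and 5 from A/J, and 7 were LCM and 6 whole lung samples. The labels do not say which samples came from 1 animal, so the p-values measure the spread between these samples. Mild dysplasia 2 and 5 carry the same number in their titles and may come from 1 animal. The count of genes called without either of them is given with the mild dysplasia results.

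Type I interferons signal through the receptor chains Ifnar1 and Ifnar2 to a complex that holds Stat2 and Irf9 and binds the interferon-stimulated response element (ISRE). Interferon gamma, made chiefly by T cells and natural killer cells, signals through Ifngr1 and Ifngr2, and its target genes are reached through the gamma-activated site (GAS). The Ifit, Oas and Mx families are the usual readout of type I interferon. The guanylate-binding proteins, the immunity-related GTPases such as Igtp, the chemokine Cxcl9 and the transcription factor Irf1 are the usual readout of interferon gamma. Many genes answer both.

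RefSeq sequence (assembly GRCm38.p6) from 250 bases before to 50 bases after the start was at hand for 33 of the 42 genes. The ISRE core was searched on both strands as GAAA, any 2 letters and GAAA again (TTTC, any 2 letters and TTTC on the other strand). GAS was searched as the palindrome TTCNNNGAA, and matches may overlap. The ISRE core was present for 16 of 33 genes (48.5%), against 1079 of all 27025 genes (3.99%). GAS was present for 7 of 33 genes (21.2%), against 2582 of 27025 (9.55%). Among the interferon gamma genes Gbp2, Gbp3, Igtp, Cxcl9 and Irf1, 3 of 5 held the ISRE core and 2 of 5 held GAS. Among the type I genes with a sequence, 4 of 7 held the ISRE core and 2 of 7 held GAS. A match is a description of these letters in this window. The stretches of 60 bases below lie upstream of the start, and are shown because the first 5 belong to genes that were lower in mild dysplasia, whereas the last 3 belong to antiviral genes that did not pass that test. Capitals mark the matches, and each is written 5′ to 3′ on the strand of the gene.
Igtp, chr11:58199496-58199555, plus strand: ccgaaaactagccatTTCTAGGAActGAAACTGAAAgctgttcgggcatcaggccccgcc
Irgm1, chr11:48871421-48871480, minus strand: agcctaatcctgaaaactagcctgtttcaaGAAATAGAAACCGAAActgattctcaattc
Gbp2, chr3:142620579-142620638, plus strand: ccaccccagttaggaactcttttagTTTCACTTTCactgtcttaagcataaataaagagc
Gbp3, chr3:142559980-142560039, plus strand: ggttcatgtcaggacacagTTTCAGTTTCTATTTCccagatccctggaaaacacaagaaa
Cxcl10, chr5:92349068-92349127, minus strand: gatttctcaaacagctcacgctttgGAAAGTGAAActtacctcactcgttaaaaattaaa
Ifit1, chr19:34640779-34640838, plus strand: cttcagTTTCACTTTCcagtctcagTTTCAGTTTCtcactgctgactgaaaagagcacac
Isg15, chr4:156200850-156200909, minus strand: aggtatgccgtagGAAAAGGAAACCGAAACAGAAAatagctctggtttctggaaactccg
Oas3, chr5:120777700-120777759, minus strand: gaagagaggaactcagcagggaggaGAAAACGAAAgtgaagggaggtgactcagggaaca
In Igtp a GAS match lay 2 letters away from an ISRE match. Ifit1 held 2 separate ISRE matches and Isg15 held 3 that overlapped. Cxcl9 held neither motif in its window.

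Total expected counts ran from 2667387 to 16534728, with a median of 9075416. All 42 genes had a count in 20 of the 25 samples, and each sample had a count for at least 40 of them. Together they made up between 438 and 2010 CPM (reads scaled to library size). Values below are log2 CPM after TMM scaling with a prior count of 2, so that a gene with no reads sits at -2.22. Per kilobase of exon, Bst2, a membrane protein that tethers budding virus, had the highest mean level of the 42 at 63.7 CPM per kilobase (SD 30.3, n = 25). The nuclear factor Ifi35 followed at 31.3 and Igtp at 20.5. The lowest were Oas3 at 0.594, Rsad2 at 0.684 and Ifi44 at 0.816. The SD over the samples exceeded the mean for Igtp (SD 26.1), for Cxcl9, with a mean of 4.21 and an SD of 11.9, and for Epsti1, Cxcl10, Oasl1, Ifi44 and Rsad2.

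The labels conflicted for 2 samples. Mild dysplasia 5 is described elsewhere in its labels as normal histology, and normal 7 as mild dysplasia. Another, high-grade 3, lay over 2 SD from the mean of the samples in 1 measure of quality. This was the median transcript integrity number (TIN), the lowest of all at 21.7. Median TIN, a measure of RNA quality, ran from 28.9 to 69.6 in normal samples, from 39.5 to 75.1 in mild dysplasia and up to 68.8 in the high-grade group. The airway epithelium markers Scgb1a1, Scgb3a2, Cyp2f2, Foxj1, Krt5, Trp63 and Epcam averaged between 7.53 and 9.87 log2 CPM in the LCM samples and between 4.27 and 9.03 in whole lung. The tissue also held immune cells in unequal amounts. The mean of 6 T cell markers (Cd3d, Cd3e, Cd3g, Cd4, Cd8a and Lck) ran from 4.16 to 9.07 in normal samples and from 1.38 to 4.67 in mild dysplasia. In the high-grade group it ran from 0.03 to 8.48. In bulk tissue, fewer cells of a type and less RNA per cell cannot be told apart.

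**Figure D1:**
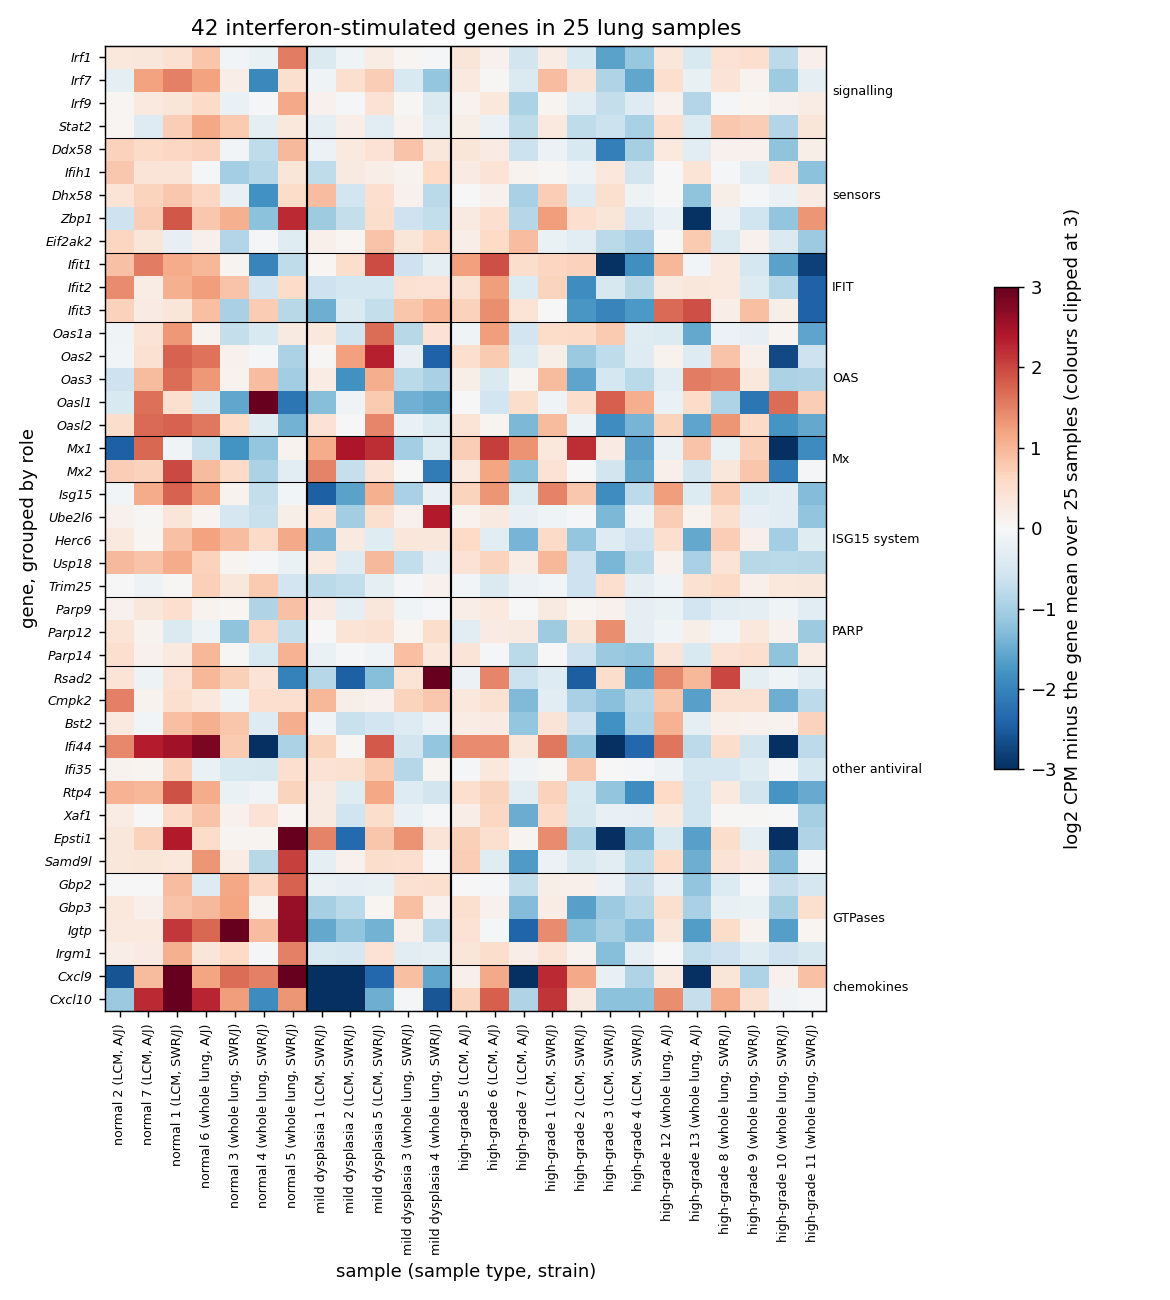
Each row is 1 of the 42 genes, grouped by role, and each column 1 of the 25 samples, ordered by grade group, sample type and strain. Colour gives log2 CPM minus the mean of the gene over the 25 samples, clipped at 3. The GTPase and chemokine rows were mostly above the gene mean in normal samples and below it in the LCM samples of mild dysplasia, whereas the Ifit, Oas and Mx rows held high and low samples in every group.

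The first comparison asked which interferon-stimulated genes differ between mild dysplasia and normal tissue. In mild dysplasia the GTPases Igtp, Irgm1, Gbp2 and Gbp3 fell, as did the chemokines Cxcl9 and Cxcl10 and the nucleic acid sensor Zbp1. The kinase Eif2ak2 rose. None of the 10 Ifit, Oas and Mx genes passed the test. Thus 8 of 42 genes changed at an adjusted p under 0.05 (edgeR quasi-likelihood test), where 13.1% of all 14897 genes did. Lower in mild dysplasia were 7 of the 42, against 6.99% of all genes, and higher was 1, against 6.06%. The median log2 fold change of the 42 genes was -0.48, and that of all genes was 0.00. The fold change was below 0 for 32 of the 42 genes, against 49.9% of all genes. The 42 genes and the lists used below were chosen with earlier results of these data known. Set beside the shares of all genes, the counts here and below are therefore a description.

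The 4 GTPases, which belong to families that act against intracellular microbes, changed in the same direction. Igtp (chr11:58013058-58021093, mm9) stood at 6.74, 4.90, 7.86, 5.53, 7.25, 6.34 and 4.92 log2 CPM in normal samples 1 to 7. In mild dysplasia 1 to 5 it stood at 3.08, 3.44, 4.77, 3.83 and 3.19. The 2 groups did not overlap. Of the 42 genes this was the only one with every mild dysplasia sample below every normal sample, which held for 0.866% of all genes. The log2 fold change of Igtp was -3.17 (SE 0.60, adjusted p = 0.0123, edgeR).

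Irgm1, an immunity-related GTPase that restrains the others, had lowest, median and highest values of 4.80, 5.23 and 6.36 in normal samples. In mild dysplasia it stood at 4.40, 4.35, 4.54, 4.56 and 5.29, so 4 of the 5 samples lay below every normal sample. Irgm1 fell by 1.07 on the log2 scale (SE 0.27, adjusted p = 0.0232, edgeR). Gbp2, a guanylate-binding protein, ran from 4.80 through 5.80 to 6.95 in normal samples and stood at 4.98, 4.94, 5.64, 5.67 and 4.97 in mild dysplasia. These groups overlapped, and the fitted log2 fold change was -0.97 (SE 0.27, adjusted p = 0.0283, edgeR). Its relative Gbp3 ran from 3.74 through 4.51 to 6.26 in normal samples, and stood at 2.64, 2.84, 4.54, 3.76 and 3.70 in mild dysplasia. Gbp3 had a log2 fold change of -1.30 (SE 0.42, adjusted p = 0.0463, edgeR).

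Cxcl9 and Cxcl10, which draw T cells through the receptor Cxcr3, had the largest fitted differences of the 42 genes. Cxcl9 (chr5:92750357-92757105, mm9) stood at 5.39, -0.97, 3.31, 3.15, 7.44, 2.81 and 2.57 in normal samples 1 to 7. It stood at -2.22, -1.36, 2.54, 0.07 and -0.72 in mild dysplasia 1 to 5, where it had 0, 1, 100, 9 and 3 expected counts. The whole lung sample mild dysplasia 3 lay among the normal samples, and normal 2 lay among the mild dysplasia samples. The log2 fold change was -5.98 (SE 1.23, adjusted p = 0.0123, edgeR). Cxcl10 ran from -0.63 through 2.58 to 4.51 in normal samples and stood at -2.22, -2.22, 1.23, -1.32 and -0.20 in mild dysplasia, with 0 counts in 2 of the 5 samples. Cxcl10 had a log2 fold change of -4.76 (SE 1.0, adjusted p = 0.0129, edgeR). With so few counts, the size of both fold changes is imprecise. Cxcl10 overlaps Art3, and without strand their shared reads cannot be told apart.

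Of the 5 sensors of foreign nucleic acid, 2 passed the test, in opposite directions. Zbp1, a sensor of Z-form nucleic acid that can start cell death, ran from 2.32 through 4.35 to 5.79 in normal samples. In mild dysplasia it stood at 2.49, 2.82, 2.92, 2.81 and 4.07, within the range of the normal samples. Zbp1 had a log2 fold change of -2.07 (SE 0.60, adjusted p = 0.0325, edgeR). Eif2ak2 encodes PKR, the kinase that halts translation on double-stranded RNA. It ran from 3.02 through 3.86 to 4.56 in normal samples and stood at 4.06, 3.97, 4.27, 4.57 and 4.76 in mild dysplasia. The log2 fold change of Eif2ak2 was 0.81 (SE 0.26, adjusted p = 0.0445, edgeR), and its reads cannot be told from those of the 2 noncoding genes it overlaps. The RNA helicases Ddx58, Ifih1 and Dhx58 had log2 fold changes of -0.03, 0.16 and -0.35, and none passed the test.

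**Figure D2:**
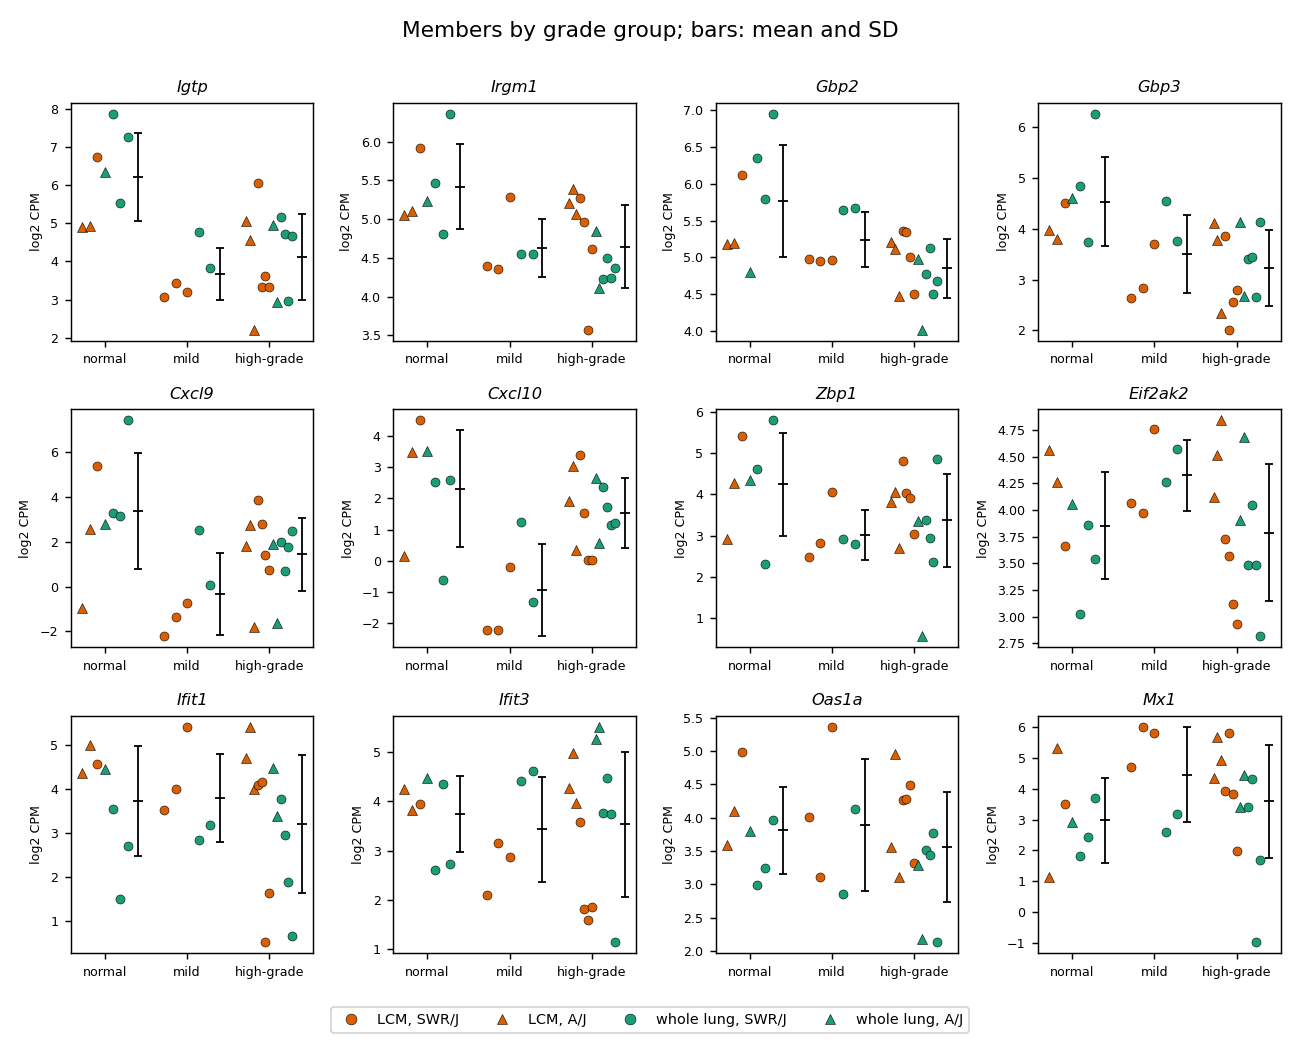
Each panel is 1 gene, with log2 CPM on the vertical axis and 1 point per sample by grade group. Colour gives sample type, shape gives strain, and the bar is the mean with the SD. Igtp did not overlap between normal and mild dysplasia samples, whereas Ifit1, Ifit3 and Oas1a overlapped widely.

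The type I genes gave no call in mild dysplasia. The Ifit proteins bind viral RNA that lacks host caps. Ifit1 was at 3.74 ± 1.25 log2 CPM (SD, n = 7) in the normal group, 3.80 ± 1.01 (n = 5) in mild dysplasia and 3.21 ± 1.57 (n = 13) in the high-grade group. Ifit2 was at 3.80 ± 0.69, 2.95 ± 0.55 and 2.81 ± 1.03 in the same order, and Ifit3 at 3.74 ± 0.77, 3.43 ± 1.06 and 3.54 ± 1.47. For each of them the groups overlapped, and the smallest adjusted p of the 3 genes in mild dysplasia against normal was 0.219 (edgeR). The reads of Ifit3 may be shared with its near copy Ifit3b, and its level is uncertain to that extent.

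The Oas enzymes make the messenger that activates RNase L. Oas1a was at 3.81 ± 0.65, 3.90 ± 0.99 and 3.56 ± 0.83 in the same order, and shares sequence with Oas1g. Oas2 was at 2.78 ± 0.98, 2.55 ± 1.78 and 2.08 ± 0.94, and Oas3 at 1.86 ± 1.01, 0.93 ± 1.13 and 1.32 ± 0.95. Of the related Oas-like genes, Oasl1 was at 2.23 ± 1.84, 1.42 ± 1.02 and 2.35 ± 1.07, and Oasl2 at 4.56 ± 1.2, 4.2 ± 0.74 and 3.51 ± 1.17. In all of these genes the SD within a group was of the size of the differences between groups or larger. Mx1, a dynamin-like GTPase that blocks influenza viruses, was at 2.98 ± 1.38, 4.46 ± 1.54 and 3.60 ± 1.83, and Mx2 at 1.59 ± 0.94, 0.89 ± 1.33 and 0.86 ± 0.94. Mx1 had the most positive fitted log2 fold change of the 42 genes in mild dysplasia, 1.22 (SE 0.79), with an adjusted p of 0.282 (edgeR). It stood at 4.72, 6.02 and 5.81 in the LCM samples of mild dysplasia and at 2.58 and 3.19 in the whole lung samples.

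Among the remaining genes, the transcription factors Irf1, Irf7, Irf9 and Stat2 had log2 fold changes between -0.66 and -0.34 in mild dysplasia against normal, and none passed the test. Irf1, which overlaps an annotated gene on the other strand, was at 6.60 ± 0.58 in the normal group, 6.08 ± 0.24 in mild dysplasia and 5.93 ± 0.67 in the high-grade group. Of the 5 genes of the system that attaches the ubiquitin-like protein Isg15, Isg15 itself had a log2 fold change of -1.28 (SE 0.63) and the conjugating enzyme Ube2l6 one of 0.86 (SE 0.38), and none passed the test. The 3 PARP genes and the 9 other antiviral genes, among them Rsad2, Bst2 and Cmpk2, likewise gave no call.

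**Figure D3:**
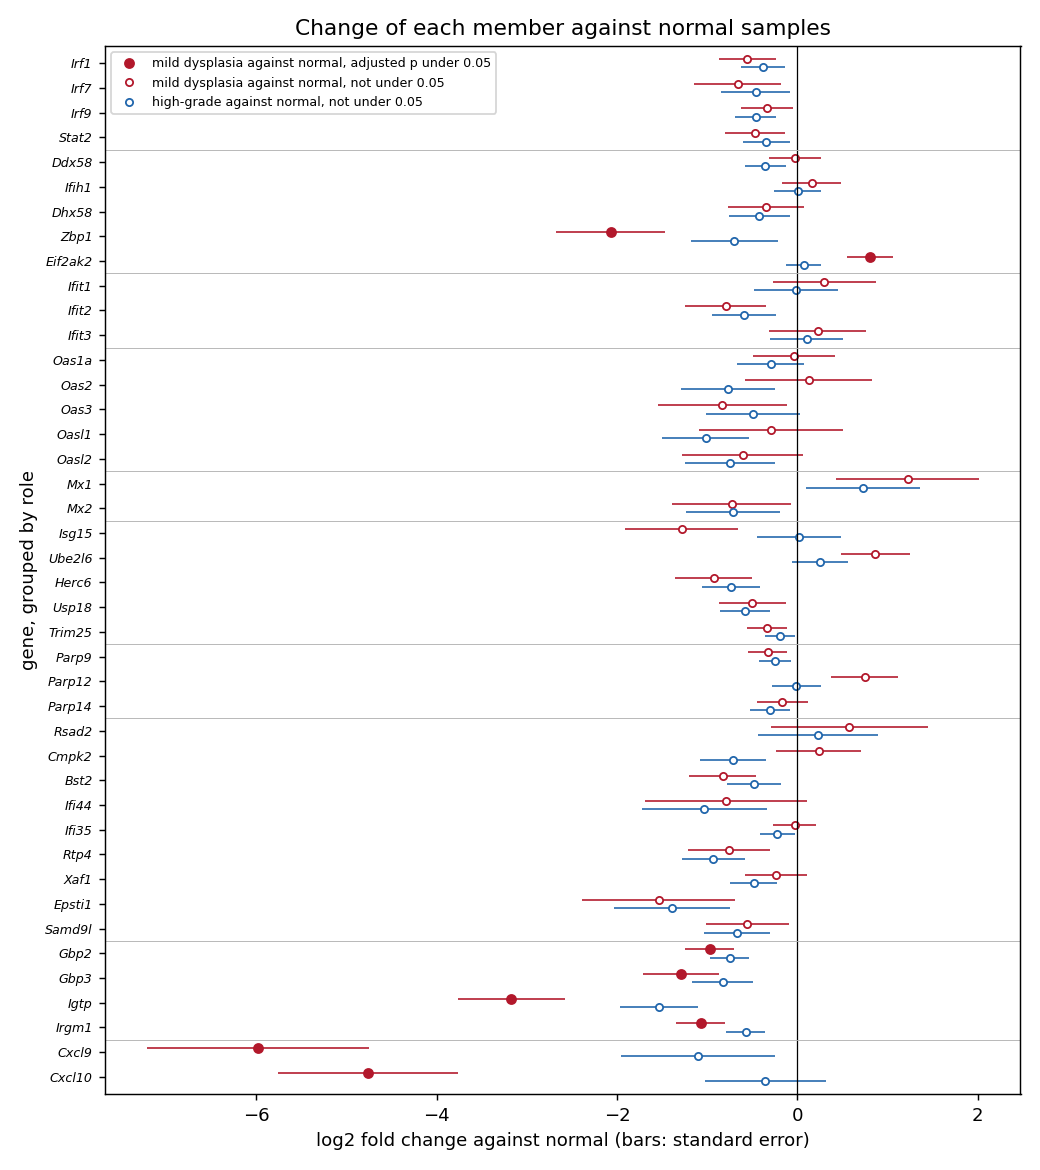
Log2 fold change against normal, on the horizontal axis, for each of the 42 genes in mild dysplasia (red) and high-grade samples (blue), with the standard error as a bar. Filled points had an adjusted p under 0.05. The 8 filled points all belong to mild dysplasia, and the Cxcl9 and Cxcl10 points lie farthest to the left.

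The other genes of the pathway were described from lists of ligands, receptors, signal transducers and further interferon-stimulated genes. Interferon transcripts were hardly present. Ifnb1 had no count in any of the 25 samples, 9 of the 15 ligand genes had none in any of them, and no ligand passed the gene filter. Ifng, the gene for interferon gamma, had 3, 3, 7, 3, 17, 4 and 6 counts in normal samples 1 to 7. It had 2 counts in mild dysplasia 3 and 0 in the other 4 samples of mild dysplasia. Of 13 high-grade samples, 5 had Ifng counts, from 1 to 5. These counts were too few for Ifng to enter the test.

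None of the 6 receptor genes passed the test in mild dysplasia. The closest, Ifngr1, lay just above the threshold, with a log2 fold change of -1.12 (SE 0.37, adjusted p = 0.05005, edgeR). Among the signal transducers, Socs1 fell and the double-stranded RNA receptor Tlr3 rose. Socs1, the feedback inhibitor of Janus kinases, stood at 5.66, 2.67, 6.63, 2.55, 4.33, 6.26 and 4.04 in normal samples 1 to 7. In mild dysplasia it stood at 1.46, 2.20, 2.43, 1.63 and 1.86. Every mild dysplasia sample lay below every normal sample, which held for 0.866% of all genes. Socs1 had a log2 fold change of -3.96 (SE 0.96, adjusted p = 0.0204, edgeR). Tlr3 had a log2 fold change of 1.03 (SE 0.30, adjusted p = 0.0310, edgeR). Of 18 further interferon-stimulated genes tested, 5 fell and none rose, where 6.99% of all genes fell and 6.06% rose; the same shares apply to the transducers and to the cell markers below. These were the GTPases Irgm2 (log2 fold change -1.66, SE 0.34), Ifi47 (-1.98, SE 0.47), Gbp4 (-2.18, SE 0.60) and Gbp6 (-2.39, SE 0.75), and Nmi (-1.14, SE 0.37). Their adjusted p-values lay between 0.0123 and 0.0476 (edgeR). Reads may be split uncertainly among the Gbp genes and among the immunity-related GTPases, which have close relatives.

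The T cell markers also differed between mild dysplasia and normal samples. All 6 were lower in mild dysplasia, with log2 fold changes between -8.38 and -4.86, each with an adjusted p between 0.0175 and 0.0324 (edgeR). None of the 6 was at 0 in any sample. The leukocyte markers Ptprc and Coro1a were also lower, by log2 fold changes of -2.60 and -2.89, with adjusted p-values of 0.04998 and 0.0290 (edgeR), whereas Laptm5, Cd53 and Lcp1 did not pass. The mean of all 5 leukocyte markers ran from 6.24 to 9.24 in normal samples and from 5.21 to 7.86 in mild dysplasia. Of the other immune lists, the macrophage marker Siglecf rose (1 of 6), and none of 4 B cell or 2 tested natural killer cell markers passed. On the list for plasmacytoid dendritic cells Ccr9 fell (1 of 4, log2 fold change -9.33, adjusted p = 0.0213, edgeR). Siglech, Ly6d and Spib on that list did not pass, and Ccr9 alone does not show a change of these cells. None of the markers of airway epithelium (7), alveolar type 2 cells (4), endothelium (4) or skeletal muscle (4) passed. With the mean of the T cell markers as a covariate, an alternative chosen after the data were seen, 0 of the 42 genes passed in edgeR, and 5 had an unadjusted p under 0.05, where 2463 of all 14897 genes did. In that fit 156 of all genes passed (1.05%). The log2 fold change of Igtp was then -1.51, that of Cxcl9 -5.35 and that of Cxcl10 -2.58. The marker mean itself differed between the groups, at 4.16 to 9.07 in normal samples and 1.38 to 4.67 in mild dysplasia. This fit can therefore hardly separate it from grade, and calls were lost over all genes as well. The part of the T cells in the result was not tested.

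The calls depended on the fit in other ways. The 8 genes were called again by DESeq2, which called 24.1% of all genes, and 7 of them, without Eif2ak2, by edgeR in the SWR/J samples alone, where 13.1% of all genes passed. All 8 were lost when strain was left out of the model (edgeR called 0 of all genes), and in the LCM or the whole lung samples alone. They were also lost with the groups of the description label, in which both samples with conflicting labels change group. At an unadjusted p under 0.05 there were 10 of the 42 without strain, against 22.8% of all genes, 6 in LCM samples, against 12.3%, and 17 in whole lung samples, against 23% (edgeR). Within LCM samples the log2 fold change of Igtp was -2.51 and within whole lung samples it was -4.29. Igtp, Cxcl9 and Cxcl10 kept their calls when each of the 25 samples was left out in turn. Irgm1 lost its call without normal 5, mild dysplasia 3 or mild dysplasia 4, Gbp2 without any of 5 samples, Zbp1 without any of 7, Gbp3 without any of 14 and Eif2ak2 without any of 16. The count of 8 became 3 without normal 5 or mild dysplasia 3. It became 4 without normal 3, mild dysplasia 2 or mild dysplasia 4, and 5 without normal 1 or mild dysplasia 5. Without both samples with conflicting labels, 5 genes passed: Igtp, Cxcl9, Cxcl10, Irgm1 and Zbp1, where 6.98% of all genes did.

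The 2 classes were set side by side in each sample. The class score is the mean over the genes of a class of log2 CPM, after the mean of each gene over the 25 samples was subtracted, with 10 genes in the type I class (Ifit1, Ifit2, Ifit3, Oas1a, Oas2, Oas3, Oasl1, Oasl2, Mx1 and Mx2) and 5 in the interferon gamma class (Gbp2, Gbp3, Igtp, Cxcl9 and Irf1). No test was made on these scores. The interferon gamma class averaged 1.06 ± 1.04 (SD, n = 7) in the normal group, -0.61 ± 0.73 (n = 5) in mild dysplasia and -0.33 ± 0.77 (n = 13) in the high-grade group. It was above 0 in 6 of 7 normal samples, 1 of 5 mild dysplasia samples and 6 of 13 high-grade samples. The type I class averaged 0.27 ± 0.68, 0.02 ± 0.65 and -0.15 ± 0.70 in the same order. The type I score minus the interferon gamma score was -0.78 ± 1.43 in the normal group, 0.63 ± 1.15 in mild dysplasia and 0.18 ± 0.82 in the high-grade group.

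This difference score followed sample type as well as grade. In mild dysplasia it was 1.43, 1.07 and 1.81 in the LCM samples and -0.88 and -0.27 in the whole lung samples. In normal samples it was -0.48, 0.39 and 0.61 in the LCM samples, and -1.71, -0.66, -3.53 and -0.10 in the whole lung samples. Hence, by the grade label, the mild dysplasia samples lay above all the normal samples within LCM tissue, but overlapped with them within whole lung. Both samples with conflicting labels were among these LCM samples, mild dysplasia 5 at 1.81 and normal 7 at 0.61. By the description label the groups overlapped within LCM tissue too. Of the LCM normal samples, normal 2 and normal 7 came from A/J, whereas all mild dysplasia samples came from SWR/J. Over all grades the 13 LCM samples averaged 0.55 ± 0.73 and the 12 from whole lung -0.60 ± 1.27. It was 0.61 ± 0.66 in 8 A/J samples and -0.29 ± 1.25 in 17 SWR/J samples.

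**Figure D4:**
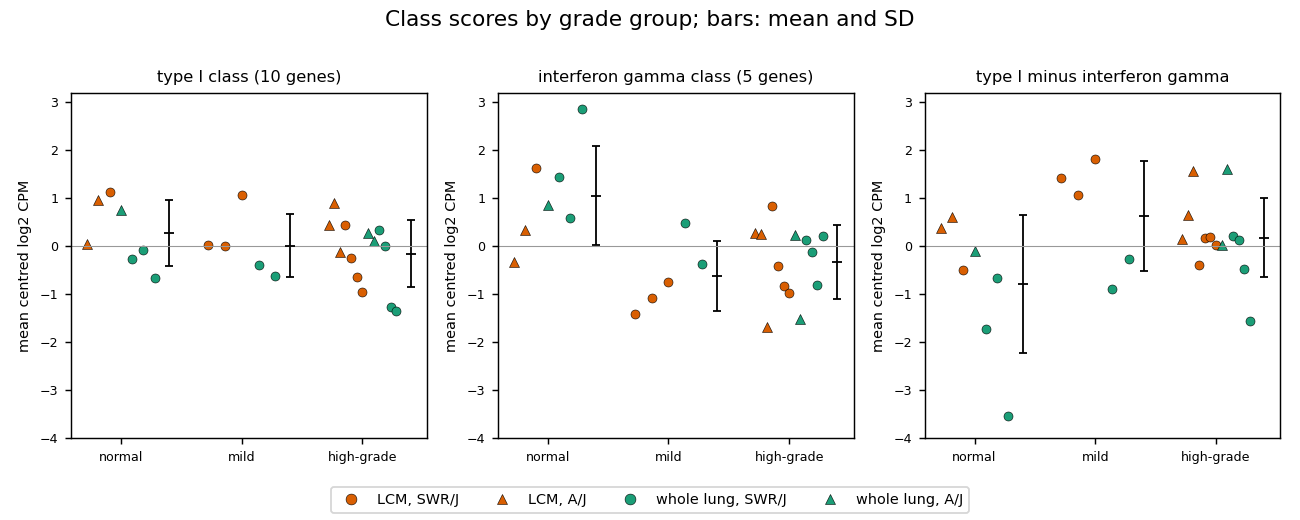
Mean centred log2 CPM of the type I class, of the interferon gamma class and of their difference, with 1 point per sample by grade group. Colour gives sample type, shape gives strain, and the bar is the mean with the SD. The interferon gamma class was above 0 in 6 of 7 normal samples and in 1 of 5 mild dysplasia samples, and the type I class spread about 0 in every group.

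The interferon gamma scores are set beside the T cell markers here. The samples with the highest mean of the T cell markers, normal 3, normal 1, normal 6 and high-grade 1 (8.48 to 9.07 log2 CPM), had interferon gamma scores of 1.44, 1.62, 0.86 and 0.85. The tumor sample high-grade 7, with the lowest mean of the T cell markers (0.03), had the lowest interferon gamma score, -1.68. The carcinoma in situ sample, high-grade 13, had a T cell marker mean of 0.87 and an interferon gamma score of -1.51. The highest score, 2.87, belonged to normal 5, whose T cell marker mean was 7.54. High-grade 6 had a low marker mean, 1.39, and a score of 0.25. High-grade 8 and 5 had high marker means, 7.79 and 7.09, and scores of 0.14 and 0.29. The type I scores of the tumor and the carcinoma in situ were -0.11 and 0.11. Those of normal 3, normal 1, normal 6 and high-grade 1 were -0.27, 1.14, 0.76 and 0.45. A relation of either class to the T cell markers was not tested.

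**Figure D5:**
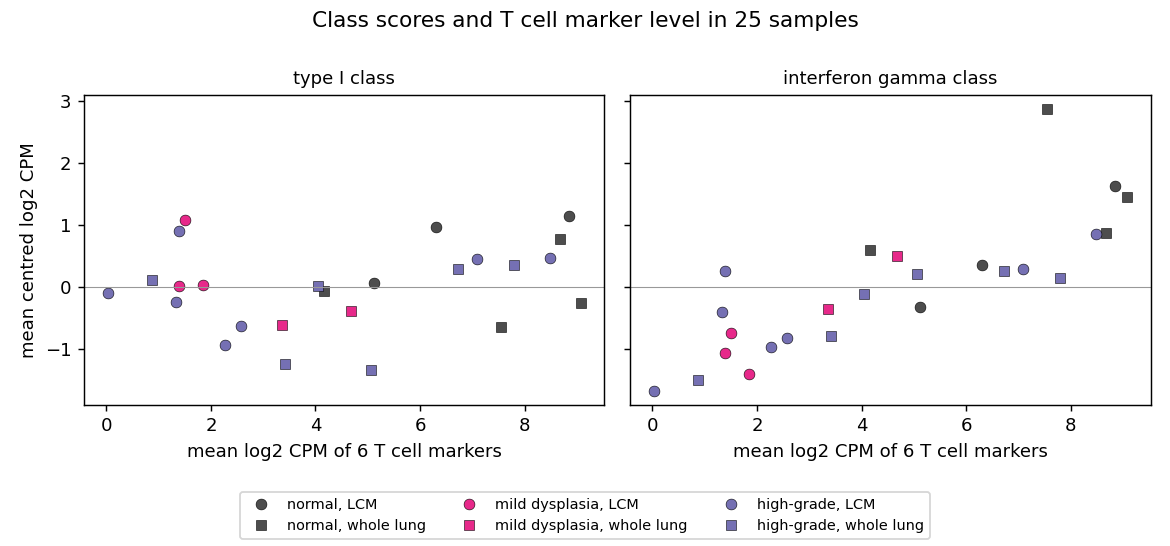
Class score, on the vertical axis, against the mean log2 CPM of 6 T cell markers, on the horizontal axis, in the 25 samples, with the type I class on the left and the interferon gamma class on the right. Colour gives grade group and shape gives sample type. High-grade 7 and 13 had the lowest T cell marker means (0.03 and 0.87) and interferon gamma scores of -1.68 and -1.51, while their type I scores were -0.11 and 0.11. Normal 3, normal 1, normal 6 and high-grade 1, with the highest marker means, had type I scores of -0.27, 1.14, 0.76 and 0.45.

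The next comparisons asked whether the genes differ in high-grade lesions. Against normal samples none of the 42 genes passed the test, where 0.0201% of all genes did. DESeq2 (86 of all genes) and limma voom (4 of all genes) also called 0 of the 42. At an unadjusted p under 0.05, 9 of the 42 genes were lower and 0 higher, against 4% and 5.35% of all genes. The median log2 fold change was -0.47, and it was below 0 for 35 of the 42, against 52% of all genes. The 3 genes with the smallest p-values were Igtp, with a log2 fold change of -1.54 (SE 0.43, adjusted p = 0.319), Gbp2 with -0.75 (SE 0.21, adjusted p = 0.319) and Rtp4, a chaperone of receptors, with -0.93 (SE 0.35, adjusted p = 0.458, edgeR). Igtp ran from 2.21 through 4.56 to 6.04 in high-grade samples and Gbp2 from 4.01 through 4.97 to 5.36, and both overlapped with the normal samples.

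Between high-grade and mild dysplasia samples none of the 42 genes passed in edgeR, where 0.228% of all genes did, and 5 of the 42 had an unadjusted p under 0.05, against 22.7% of all genes. The 2 chemokines came closest. Cxcl10 ran from 0.03 through 1.52 to 3.39 in high-grade samples, and 4 of the 5 mild dysplasia samples lay below that range. The fitted difference was a log2 fold change of 4.41 (SE 1.09, adjusted p = 0.0639, edgeR). Cxcl9 ran from -1.81 through 1.79 to 3.86, with a log2 fold change of 4.88 (SE 1.35, adjusted p = 0.0699, edgeR). DESeq2, which called 8.85% of all genes, called both, with adjusted p-values of 0.00154 and 0.00169, and edgeR called both without high-grade 9, and Cxcl10 without normal 2. The third was Eif2ak2, with a log2 fold change of -0.74 (SE 0.26, adjusted p = 0.112, edgeR). This comparison and that of mild dysplasia with normal samples share the 5 mild dysplasia samples.

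Against the rank of grade, from 0 for normal to 4 for carcinoma in situ or tumor, none of the 42 genes passed in edgeR, where 0.275% of all genes did. At an unadjusted p under 0.05, 19 of the 42 genes fell with grade and 0 rose, against 7.10% and 6.82% of all genes. The 3 genes with the smallest p-values were Gbp2, with a log2 change of -0.30 per rank (SE 0.08, adjusted p = 0.114), the apoptosis factor Xaf1 with -0.31 (SE 0.09, adjusted p = 0.120) and the Isg15 ligase Herc6 with -0.41 (SE 0.12, adjusted p = 0.124, edgeR). The count depended on the tool. DESeq2 called 9 genes, all lower with grade: Cmpk2, Gbp2, Herc6, Igtp, Irf9, Oasl2, Rtp4, Samd9l and Xaf1, and it called 3.54% of all genes, 1.75% lower. In limma voom it was 3 of the 42, against 1.71% of all genes. In edgeR without the RNA quality covariate (median TIN) it was 7, against 1.22%, and without strain 2, against 1.89%. Leaving out high-grade 1 gave 1, Igtp. The rank shares its high-grade and normal samples with the comparisons above.

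Whole lung sections were compared with LCM tissue in the same model. Of the 42 genes, 2 were lower in whole lung and 1 was higher, where 15.1% of all genes differed (6.65% lower and 8.42% higher). Ifi35, a binding partner of Nmi, ran from 5.59 through 5.80 to 6.51 in LCM samples and from 4.85 through 5.29 to 6.21 in whole lung. Its log2 fold change was -0.62 (SE 0.15, adjusted p = 0.0117, edgeR), and of the 3 it alone kept its call with each sample left out. It overlaps an annotated gene on the other strand. Oas1a ran from 3.11 through 4.11 to 5.37 in LCM samples and from 2.13 through 3.37 to 4.13 in whole lung, with a log2 fold change of -0.97 (SE 0.29, adjusted p = 0.0312, edgeR). Trim25, the ubiquitin ligase that switches on the RNA sensor Ddx58, ran from 5.08 through 5.69 to 6.37 in LCM samples and from 5.31 through 6.20 to 6.67 in whole lung. Its log2 fold change was 0.44 (SE 0.13, adjusted p = 0.0312, edgeR). The groups overlapped for each of the 3. In the SWR/J samples alone edgeR called 0 of the 42 genes, and 3.88% of all genes. Over all 25 samples DESeq2 called 7, adding Ifit3, Mx1, Rsad2 and Usp18, and 21.8% of all genes. The count became 1 without high-grade 2 or mild dysplasia 3, and 7 without normal 5. Of the other genes of the pathway, the receptor chain Ifnar1 and the transducers Irf2, Irf5, Irf8 and Tlr7 were higher in whole lung, with log2 fold changes between 0.49 and 1.10, and Lgals3bp was lower by a log2 fold change of -0.91.

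Strain is confounded with dose and grade in the high-grade group. Its A/J samples had 14 to 20 µmol NTCU and held the carcinoma in situ and the tumor, whereas its SWR/J samples had 25 to 50 µmol and held both samples of severe dysplasia, so strain, dose and grade cannot be told apart there. Between the strains, none of the 42 genes passed the test in edgeR, where 0.933% of all genes did. At an unadjusted p under 0.05, 6 were lower in A/J and 2 higher, against 7.67% and 9.81% of all genes. Gbp2 ran from 4.01 through 5.05 to 5.20 in 8 A/J samples and from 4.50 through 5.12 to 6.95 in 17 SWR/J samples, with a log2 fold change of -1.03 (SE 0.26, adjusted p = 0.0605, edgeR). Cxcl9 ran from -1.81 through 1.84 to 2.81 in A/J and from -2.22 through 2.00 to 7.44 in SWR/J, with -3.42 (SE 0.95, adjusted p = 0.0908, edgeR). The third was Igtp, with -1.39 (SE 0.50, adjusted p = 0.169, edgeR). DESeq2 called Gbp2 and Cxcl9, and 6.05% of all genes. Leaving out median TIN gave Eif2ak2 and Ifit3 instead, both higher in A/J, and 16.1% of all genes. Leaving out high-grade 4, 5 or 12 gave Gbp2 in edgeR, leaving out high-grade 6 or 9 gave Gbp2 and Cxcl9, and leaving out mild dysplasia 1 gave Epsti1.

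Whether the effect of sample type or of strain differed in high-grade samples was also asked, by an interaction term in each case. The term for strain carries the same confounding with dose and grade. In the fit for sample type, normal and mild dysplasia samples shared the sample type effect, so high-grade samples were set against both. None of the 42 genes passed in either test, and 0% of all genes did (edgeR). At an unadjusted p under 0.05 there was 1 of the 42 for sample type (Ddx58) and 2 for strain (Gbp2 and Irgm1), against 6.87% and 4.44% of all genes, and DESeq2 called 0 of the 42 in both. The fitted interaction of Gbp2 with strain was 1.08 (SE 0.35), with an adjusted p of 0.950 (edgeR). For mild dysplasia no comparison between strains could be made, because its samples came from SWR/J alone.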

How the data were processed

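RNA from 40 fresh frozen lung samples was sequenced with single-end reads. After trimming (Trimmomatic), the authors used STAR in 2 passes on mm9 and RSEM on Ensembl genes. The deposited values are expected counts, not normalized. RSEM divides reads among genes with shared sequence, so close relatives are uncertain; 88.8% of the deposited expected counts were whole (within 1e-09, zeros included), and 74.8% of those above 0. Samples were excluded by the study where few reads aligned uniquely, which left 25.

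Expected counts were rounded. Genes with an interquartile range of 0 or a sum of at most 1 in log2 CPM (prior count 0.25) were dropped, which left 14897. The robust quasi-likelihood test of edgeR 4.0.16 (TMM) in R 4.3.3 used all 25 samples in 1 fit, with grade group, median TIN (transcript integrity number), strain and sample type; the rank of grade replaced the group in a separate fit, and the interactions were added terms. Standard errors were derived from the fold change and the F statistic. P-values were adjusted by Benjamini-Hochberg over all genes tested, with a threshold of 0.05. DESeq2 1.42.0 (with TIN scaled to unit SD) and limma 3.58.1 were alternatives. Other alternatives changed the size factors, gene filter, covariates, samples or label used. Levels per length divide CPM by the union of exons in kilobases. All 42 genes may be named. Full statistics are given for those under the threshold, at most 10 per comparison, or for the 3 with the smallest p where fewer than 3 passed. Of the pathway lists, genes under the threshold are named, at most 6 per list, with Ifng and Ifnb1 always, and Ifngr1, which lay just above it. One gene of these lists is not reported here. The members and lists were chosen with earlier results of these data known. Promoters are RefSeq (GRCm38.p6), matched by symbol for 33 of 42 genes; gene positions are mm9. The fit was checked on simulated data for mild dysplasia against normal. Of genes given a log2 change of 1, 17.9% were called, with 83.6% at a change of 2 and 86.4% at 3. The changed genes were drawn only from those above a set mean CPM, and strain, sample type and TIN were given no effect. The shares therefore do not cover the lowest genes. A gene without a call may still have a change of about 1, or less often a larger one.

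Depth per sample, from 2667387 to 16534728 counts, limits the precision of low genes such as Cxcl9 and Ifng. The 15 samples that did not pass, with 17051 to 1965373 counts, entered no comparison.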

Additional observations from a re-analysis of the deposited data

Results flagged for a closer look

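Of 48 sets of values checked (21 genes and 3 scores, each in the normal and the mild dysplasia groups), 2 had 1 sample far from the rest, and chance alone gives about 1 in 20. Both are mild dysplasia 5, the sample that is described elsewhere in its labels as normal histology. It had 4.07 log2 CPM of Zbp1, where the other 4 samples of mild dysplasia lay between 2.49 and 2.92. It had 5.29 log2 CPM of Irgm1, where the other 4 lay between 4.35 and 4.56. Without this sample and the other with conflicting labels, both genes remained under the threshold, with adjusted p-values of 0.0458 for Zbp1 and 0.0264 for Irgm1 (edgeR).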

How the results depend on the processing

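The number of the 42 genes under the threshold in mild dysplasia against normal (8) became 5 without median TIN, 5 without the samples with conflicting labels, and 0 without strain, in LCM samples only, in whole lung samples only, with the groups of the description label, and with T cell markers as a covariate (chosen after seeing the data). It was between 6 and 9 under the other alternatives, and between 3 and 8 with each sample left out. High-grade against normal gave 0 under every alternative and with each sample left out. High-grade against mild dysplasia (0) gave 2 with DESeq2, 1 with limma voom and 2 without median TIN, and 0 to 2 with each sample left out. Rank of grade (0) gave 9 with DESeq2, 3 with limma voom, 7 without median TIN and 2 without strain, and 0 to 1 with each sample left out. Whole lung against LCM (3) gave 7 with DESeq2, 5 with limma voom, 1 without the samples with conflicting labels and 0 in SWR/J samples only, and 1 to 7 with each sample left out. A/J against SWR/J (0) gave 2 with DESeq2, 3 with limma voom and 2 without median TIN, and 0 to 2 with each sample left out. Both interactions gave 0 with DESeq2 too. The type I minus interferon gamma difference between mild dysplasia and normal samples was 1.42, with 0.94 to 1.56 under the alternatives and 0.96 to 1.79 with each sample left out (this last added after seeing the data). For high-grade samples it was 0.96, with 0.79 to 0.98 and 0.51 to 1.2. None of the 11 gene calls changed sign. The causes of these changes were not tested. The share of all genes called is given above for only some of these fits. Where it is not given, a count does not show a change particular to the 42 genes. Over all genes, DESeq2 called 3584 in mild dysplasia against normal where edgeR called 1945. The planned removal of departing samples took out 1, high-grade 3. No paired analysis was possible because the labels give no replicate numbers that pair samples across groups.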

Other observations

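The 15 samples that did not pass quality control had between 8 and 40 of the 42 genes with a count, and the 42 genes together made up between 237 and 1920 CPM there, against 438 to 2010 in the samples that passed. The highest was a whole lung sample of A/J with a high-grade lesion, and the lowest a whole lung sample of SWR/J with a high-grade lesion.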
